A study of Mus musculus with 36 samples.

Results

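The 36 genes described here encode aminoacyl-tRNA synthetases, and they were taken by symbol from the 39017 genes of the count table. Of these, 20 encode enzymes that work in the cytosol and 16 encode enzymes that work in mitochondria, whose symbols end in 2. All 36 symbols were found, and all 36 genes passed the filter on low counts that left 14439 genes for testing. RNA was measured in 36 libraries of pancreatic fibroblasts from C57BL/6 mice, in 9 groups of 4. In 8 groups the fibroblasts had been kept for 48 h in co-culture with a tumor line that carried GFP and had then been sorted away from it. The lines were the tumor sub-clones E, H, K, M, N, T and V, and KPC1, a name that the labels do not explain. In the other group, the mono-culture, fibroblasts of the same kind were grown without tumor cells. Nothing in the labels says that the 4 libraries of a group came from separate cultures, so p-values measure the spread between these libraries, which may be technical.

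An aminoacyl-tRNA synthetase joins an amino acid to its tRNA, so that the ribosome can place that amino acid at the matching codon. Cytosolic enzymes charge the tRNAs used to translate nuclear messages, and a separate nuclear-encoded set is imported into mitochondria to charge the tRNAs used there. Several cytosolic enzymes sit together in the multi-synthetase complex, held by the scaffold proteins Aimp1, Aimp2 and Eef1e1. Gars and Kars have no mitochondrial partner gene in mammals, since each supplies both compartments, and Eprs joins glutamyl-tRNA and prolyl-tRNA synthetase in a single protein. Many cytosolic synthetase genes are textbook targets of ATF4, the transcription factor of the integrated stress response, which binds with C/EBP proteins at composite elements of the form TGATGNAA.

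The promoter windows of the members that hold letters of this form are printed first, to show the element in its sequence. RefSeq windows of 300 bases, from 250 before to 50 after an annotated start on build GRCm38.p6, were matched for 13 cytosolic and 14 mitochondrial members. Letters of the form TGATGNAA on either strand occurred in the windows of 5 of the 13 cytosolic members (38.5%) and of 0 of the 14 mitochondrial members. Among all 27025 genes with a window, 1219 (4.51%) held a match. The matched letters are in capitals below, each window reads 5′ to 3′ on the strand of its gene, and a match on the opposite strand reads as the reverse complement, TTNCATCA. A match is a description of the letters, and binding was not measured. No window was matched for Cars, Hars, Lars, Nars, Rars, Vars, Wars, Hars2 and Pars2. In Aars, for alanine (chr8:111033592-111033891, plus strand), matches began 112 bases before and 10 bases after the start. In Gars, for glycine (chr6:55037751-55038050, plus strand), the match began 30 bases before it. In Iars, for isoleucine (chr13:49681880-49682179, plus strand), it began 8 bases after it. In Tars, for threonine (chr15:11399609-11399908, minus strand), it began 15 bases before it, and in Yars, for tyrosine (chr4:129189653-129189952, plus strand), 4 bases after it.
Aars: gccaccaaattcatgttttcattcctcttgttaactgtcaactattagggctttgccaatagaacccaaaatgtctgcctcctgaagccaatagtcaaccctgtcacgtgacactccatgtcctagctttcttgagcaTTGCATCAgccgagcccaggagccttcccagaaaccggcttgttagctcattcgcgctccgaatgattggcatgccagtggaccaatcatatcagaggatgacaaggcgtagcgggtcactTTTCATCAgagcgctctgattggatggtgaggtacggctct
Gars: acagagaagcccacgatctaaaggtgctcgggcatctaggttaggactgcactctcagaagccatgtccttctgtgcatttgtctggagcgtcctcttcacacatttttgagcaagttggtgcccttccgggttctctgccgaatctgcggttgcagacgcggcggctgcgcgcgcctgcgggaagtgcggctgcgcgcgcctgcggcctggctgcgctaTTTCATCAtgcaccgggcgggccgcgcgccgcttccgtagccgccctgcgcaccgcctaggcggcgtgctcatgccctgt
Iars: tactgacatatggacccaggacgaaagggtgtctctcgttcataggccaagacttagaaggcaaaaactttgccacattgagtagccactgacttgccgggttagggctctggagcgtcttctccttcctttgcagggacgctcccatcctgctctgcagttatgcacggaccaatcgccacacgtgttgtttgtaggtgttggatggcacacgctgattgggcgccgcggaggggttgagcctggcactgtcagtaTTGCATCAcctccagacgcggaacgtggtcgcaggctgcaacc
Tars: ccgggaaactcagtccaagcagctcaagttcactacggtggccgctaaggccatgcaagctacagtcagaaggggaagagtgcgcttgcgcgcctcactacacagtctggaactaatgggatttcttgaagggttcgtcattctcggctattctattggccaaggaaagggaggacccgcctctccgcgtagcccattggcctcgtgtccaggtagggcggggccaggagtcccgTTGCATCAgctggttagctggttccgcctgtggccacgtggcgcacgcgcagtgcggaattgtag
Yars: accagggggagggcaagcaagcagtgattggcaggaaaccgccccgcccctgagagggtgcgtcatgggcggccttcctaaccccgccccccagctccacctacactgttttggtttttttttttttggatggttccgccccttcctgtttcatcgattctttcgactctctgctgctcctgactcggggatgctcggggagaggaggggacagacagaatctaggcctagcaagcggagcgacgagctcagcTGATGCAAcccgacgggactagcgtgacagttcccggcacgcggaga

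Library totals lay between 12532122 and 21985538 counts, and each member had at least 38 counts in every library. The sorted fibroblasts were checked against marker lists. The 10 fibroblast markers (Col1a1, Col1a2, Col3a1, Pdgfra, Pdgfrb, Thy1, Dcn, Lum, Vim and Fap) were all detected and summed to between 10902 and 32116 CPM, counts relative to the library total. The epithelial markers summed to 0.989 to 1.71 CPM in the mono-culture, where Cldn3, Cldn4, Cldn6 and Esrp1 were among those at 0, and to between 19.8 and 865 CPM in co-culture. Markers of immune, endothelial and acinar cells summed to at most 15.4, 6.33 and 10.4 CPM. In bulk RNA of this kind, fewer cells of a type and less RNA per cell cannot be told apart.

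Cytosolic synthetase genes were far more abundant than mitochondrial ones in every group. On the RPKM scale, which divides by gene length and library total, the mean over the 36 libraries ran from 16.3 RPKM for Farsa to 199.9 RPKM for Nars among cytosolic genes, with a median of 55.7 RPKM. Among mitochondrial genes it ran from 0.464 RPKM for Mars2 to 11.8 RPKM for Iars2, with a median of 4.96 RPKM. The ranges of the classes therefore did not meet. Summed over the 20 genes, the cytosolic level was 1240 ± 94.4 RPKM in mono-culture, 946 ± 33.1 RPKM with clone M and 2221 ± 316 RPKM with clone V (SD, n = 4 each). Summed over the 16 genes, the mitochondrial level was 93.1 ± 4.27 RPKM in mono-culture, 92.7 ± 5.21 RPKM with clone M and 78.3 ± 7.07 RPKM with clone V (SD, n = 4 each).

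**Figure D1:**
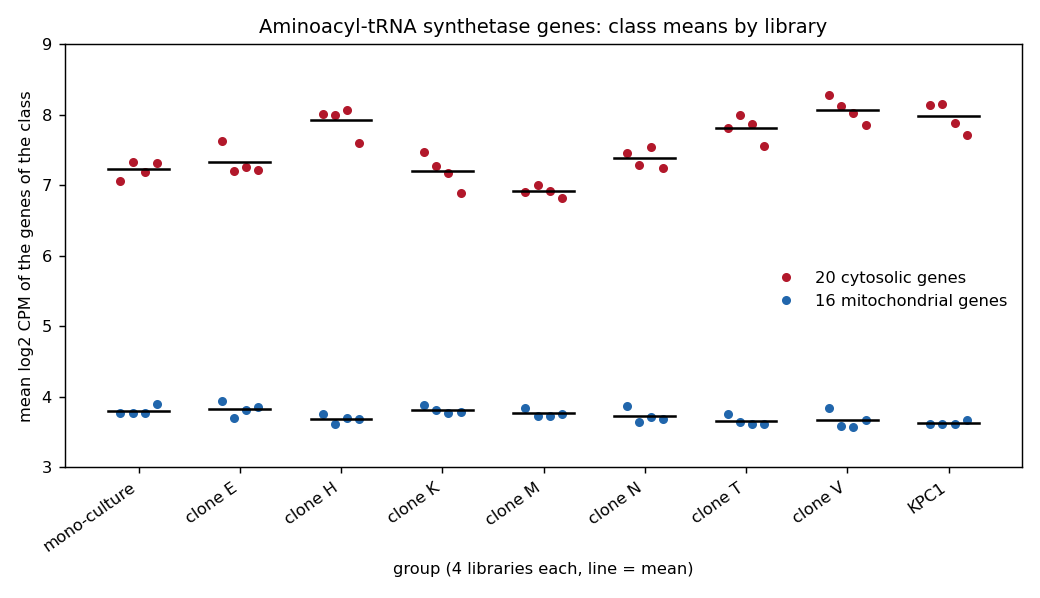
Mean log2 CPM of the 20 cytosolic genes (red) and of the 16 mitochondrial genes (blue) in each library, by group, with the group mean as a black line. Cytosolic group means ran from 6.91 with clone M to 8.07 with clone V, while mitochondrial group means stayed between 3.63 with KPC1 and 3.83 with clone E.

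The distance between the classes differed by line. The cytosolic mean less the mitochondrial mean, in log2 CPM, was 3.42 ± 0.104 in mono-culture (SD, n = 4, range 3.29 to 3.55). It was 4.34 ± 0.235 with KPC1, and 4.40 ± 0.155, 4.23 ± 0.223 and 4.14 ± 0.191 for clones V, H and T (SD, n = 4 each). Each of the 16 libraries of these lines, the lowest at 3.91 with clone H, lay above the mono-culture range. For clones N, E, K and M, in this order, the distance was 3.65 ± 0.121, 3.5 ± 0.137, 3.38 ± 0.201 and 3.15 ± 0.106 (SD, n = 4 each). With clone N the lowest library was at 3.55, as was the highest of mono-culture. With clones E and K the ranges overlapped that of mono-culture, and with clone M the highest library reached 3.28, just under it. These distances are described without a test, since they are scores over a chosen list.

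Comparison of each co-culture with mono-culture asked which synthetase genes differed after contact with each line. All 8 comparisons share the same 4 mono-culture libraries, so their results are given side by side. A gene is called here when its adjusted p-value from edgeR, over the 14439 genes tested, was under 0.05. Over the 8 comparisons cytosolic genes were called higher 70 times and lower 6 times, of 160 values. Mitochondrial genes were called higher 9 times and lower 22 times, of 128 values. Of all genes tested, between 10.4% (clone K) and 30.5% (KPC1) were called higher in a comparison. Between 8.69% (clone K) and 28.9% (clone V) were called lower.

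With clone V all 20 cytosolic genes were higher than in mono-culture, against 29.4% of all genes tested. Their median log2 fold change was 0.96, from 0.24 for Farsa to 1.37 for Tars, and the median of all genes was 0.01. With KPC1 15 cytosolic genes were higher and 0 lower, against 30.5% and 28.5% of all genes, with a median log2 fold change of 0.96. With clone H 17 were higher and 0 lower, against 27.8% and 26.4%, with a median of 0.75. With clone T 15 were higher and 0 lower, against 25% and 24.7%, with a median of 0.69. The share of all genes called higher with all 4 of these lines together was not computed, and the shares by line do not give it. The cytosolic genes called with all 4 numbered 15, namely Cars, Eprs, Farsb, Gars, Iars, Lars, Mars, Nars, Qars, Rars, Sars, Tars, Vars, Wars and Yars. Of the 9 with a promoter window, 4 held a match (Gars, Iars, Tars and Yars) and Eprs, Farsb, Mars, Qars and Sars held none. Of the other 4 cytosolic genes with a window, Aars held matches and Dars, Farsa and Kars held none.

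The other 4 lines gave fewer cytosolic calls, and these counts moved with the fit. With clone N 2 cytosolic genes were higher (Cars and Qars) and 1 lower (Aars), against 19.7% and 19.2% of all genes, with a median log2 fold change of 0.19. With clone E Cars was higher and Aars lower, against 16.5% and 15.5%, with a median of 0.12. With clone K 0 were higher and Sars was lower, against 10.4% and 8.69%, with a median of -0.0032. With clone M 0 were higher and 3 lower (Aars, Gars and Sars), against 12.2% and 10.8%, with a median of -0.31, and 19 of the 20 cytosolic log2 fold changes were below 0, Qars being above it. With only the groups compared in the fit, the cytosolic calls were 14 with clone M (13 lower and 1 higher), 7 with clone N, 5 with clone E and 1 with clone K. The shares of all genes given above are those of the main fit. They were not computed for this one, so these counts have no background beside them.

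For the calls with clone V, 16 of the 20 stayed past the threshold in each of 18 alternative analyses. Those of Aars, Dars, Farsa and Qars did not, and all 4 missed it without scaling beyond the library total, at adjusted p = 0.08, 0.23, 0.15 and 0.15. The 18 alternatives include a threshold of 0.1 on the main fit, at which a call made at 0.05 cannot be lost. All 15 calls with KPC1 and the 3 with clone M stayed past the threshold in each alternative. With clone H Lars was lost without mono-culture replicate 1 or 3 or clone H replicate 1 or 3 (adjusted p from 0.051 to 0.083). With clone T Lars was lost without mono-culture replicate 1 or 3 or clone T replicate 1 or 2 (adjusted p from 0.058 to 0.087), and Eprs without mono-culture replicate 1 or clone T replicate 2 (adjusted p = 0.053 and 0.078). Neither cytosolic call with clone E stayed in all of them, and that of Cars had an adjusted p of 0.16 without clone E replicate 1.

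The mitochondrial genes showed no shared direction. With clone V 3 of the 16 were higher and 5 lower, against 29.4% and 28.9% of all genes, with a median log2 fold change of -0.15. With KPC1 2 were higher and 6 lower, against 30.5% and 28.5%, with a median of -0.15. With clone H 2 were higher and 4 lower, against 27.8% and 26.4%, with a median of -0.07, and with clone T 0 and 3, against 25% and 24.7%, with a median of -0.04. With clone N 1 was higher and 3 lower, against 19.7% and 19.2%, with a median of -0.04. With clones E and K a single gene was called, Pars2 lower with E (15.5% of all genes) and Aars2 higher with K (10.4%). With clone M 0 of 16 were called by edgeR, against 12.2% and 10.8%. At an unadjusted p under 0.05 it was 1 of 16, and DESeq2 and limma on RPKM also called 0. Ears2, Iars2, Lars2, Tars2 and Vars2 were called with no line.

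**Figure D2:**
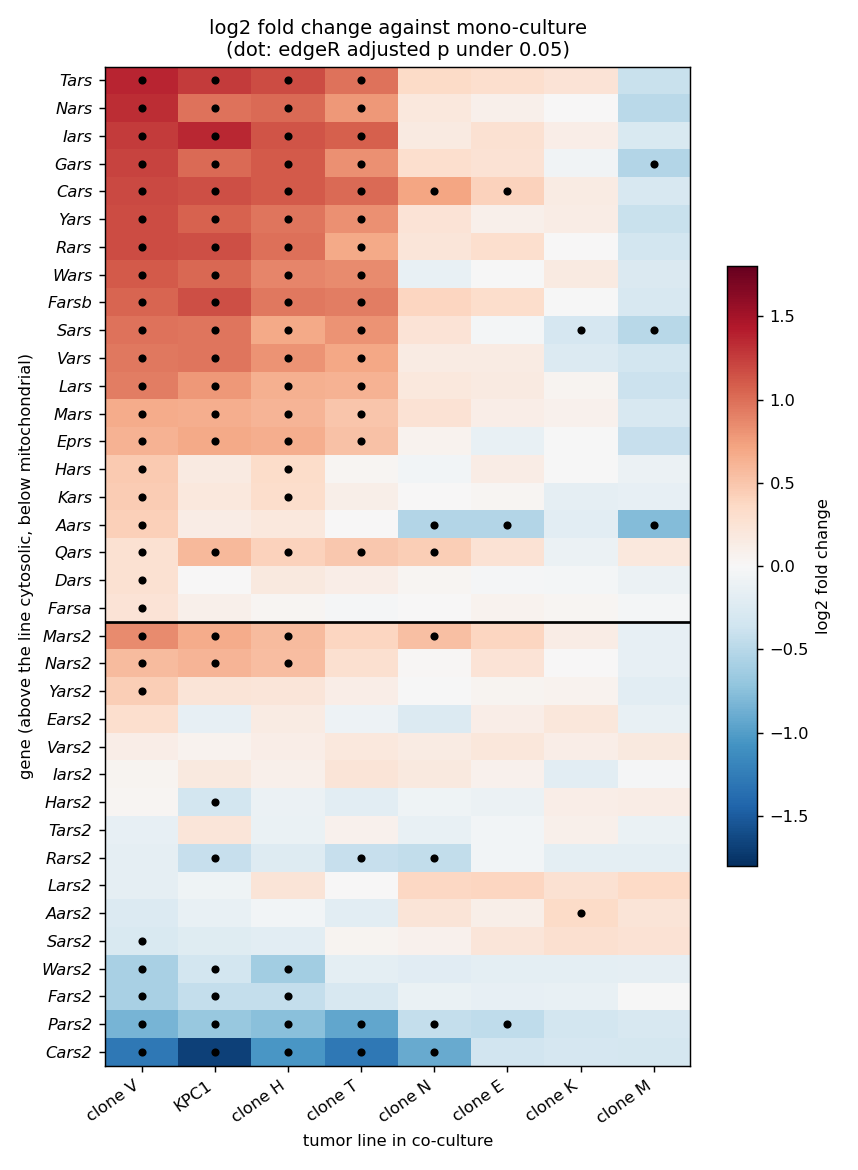
log2 fold change of each of the 36 genes against mono-culture in the 8 co-cultures, with cytosolic genes above the black line and mitochondrial genes below it, ordered by their value with clone V, and a dot where edgeR's adjusted p was under 0.05. Of the 15 cytosolic genes called with clones V, H and T and KPC1, all but Qars form the red block at the upper left. Qars lies lower, below Hars, Kars and Aars. Cars2 and Pars2 are the deepest blue rows, with Cars2 down to -1.69 with KPC1.

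Other measures moved with these groups. Fibroblast markers summed to a mean of 21949 CPM in the mono-culture, to 14849 with KPC1, to 16692, 17046 and 17172 with clones V, H and T, and to 23285, 26153, 26774 and 23598 with clones E, K, M and N. The 10 markers did not move together. With clone H 3 were higher and 5 lower (27.8% and 26.4% of all genes), at log2 fold changes from -2.49 to 4.48. With clone T 4 were higher and 6 lower (25% and 24.7%), from -2.65 to 5.51. Among the co-cultures the group mean of the epithelial sum was lowest with clone V (109 CPM, range 31.5 to 232) and highest with clone N (550 CPM, range 446 to 690). It was 176 with clone H, 160 with clone K, 263 with clone M, 368 with clone E, 376 with KPC1 and 537 CPM with clone T. Epithelial markers of the tumor lines themselves were not measured here, so this sum cannot rank the co-cultures by their content of tumor RNA. The part of either marker list in the synthetase results was not tested.

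Differences among the 8 co-cultures were then tested without mono-culture. In an F-test over 7 contrasts, edgeR called 18 of the 20 cytosolic genes (90%) and 11 of the 16 mitochondrial genes (68.8%), against 72% of all genes. The cytosolic genes not called were Dars, for aspartate (adjusted p = 0.057), and Farsa (adjusted p = 0.063). The mitochondrial genes not called were Ears2, Lars2, Rars2, Tars2 and Vars2, with adjusted p from 0.11 to 0.86. Over the 28 pairs of co-cultures the number of cytosolic genes called ran from 0 to 20 with a median of 13.5, and that of mitochondrial genes from 0 to 10 with a median of 2. The share of all genes called in a pair ran from 0.388% (clones H and V) to 57.9% (clones M and V). Between clones M and V 95% of the cytosolic and 62.5% of the mitochondrial genes were called, the latter near the share of all genes.

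Pairs of lines differed in their number of calls. No cytosolic gene was called by edgeR between clones H and V, where 0.388% of all genes were called, between H and KPC1 (2.89%), H and T (7.58%), T and KPC1 (5.36%), E and N (1.27%) or K and M (2.24%). At an unadjusted p under 0.05 the same pairs gave 2, 1, 2, 1, 1 and 10 of the 20 genes, and no other tool was run on them. Between clones K and V all 20 were called, each lower with K, where 54.8% of all genes were called. Clones T and V differed in 6 cytosolic genes (24% of all genes), and clone V and KPC1 in 2 (10.7%). Clones M and N differed in 10 (19.2%), E and M in 9 (11.5%), K and N in 4 (21.7%) and E and K in 1 (11.5%).

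Clones V and M, the co-cultures with the highest and lowest cytosolic levels, were compared directly, a pair picked with earlier results of these data known. With clone V 19 cytosolic genes were higher and 0 lower, against 28.3% and 29.7% of all genes, with a median log2 fold change of 1.32 (-0.04 over all genes). The exception was Qars, for glutamine, at 0.08 (SE 0.10, adjusted p = 0.56). Among mitochondrial genes 3 were higher (Mars2, Nars2 and Yars2) and 7 lower, with a median of -0.08. The lower ones were Aars2, Cars2, Fars2, Lars2, Pars2, Sars2 and Wars2. The call of Lars2, for leucine, was lost in 9 of the 18 alternatives (adjusted p from 0.053 to 0.16 in these). Those of Nars2 (adjusted p = 0.061) and Dars (adjusted p = 0.082) were lost without clone V replicate 1, and that of Dars also with only the groups compared (adjusted p = 0.059).

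Sars, the cytosolic enzyme for serine, separated the co-cultures most sharply of the 36 genes (edgeR F-test, adjusted p = 2.6e-13, rank 6 of 14439). It lies at chr3:108424865-108445209 on the minus strand (gene positions are those of GENCODE M21 on GRCm38). Sars had 348, 426, 398 and 371 CPM in the 4 mono-culture libraries. With clone V it had 886, 735, 745 and 672 CPM, with KPC1 764, 849, 714 and 684 CPM, with clone T 629, 788, 686 and 608 CPM, and with clone H 611, 641, 678 and 544 CPM. Each of these 16 libraries was above each mono-culture library. With clone M it had 276, 255, 282 and 279 CPM and with clone K 362, 304, 312 and 275 CPM, with clone N 422, 412, 515 and 478 CPM and with clone E 409, 330, 390 and 374 CPM. The clone M libraries all lay below mono-culture, clones K, N and E overlapped it, and the log2 fold changes were 0.98 with clone V (1.97-fold, SE 0.10, adjusted p = 4.2e-09) and -0.50 with clone M (SE 0.10, adjusted p = 0.00061). The call of Sars with clone K (-0.30, SE 0.10, adjusted p = 0.04) was lost without the filter on low counts (adjusted p = 0.07) and when mono-culture replicate 2 or 3 or clone K replicate 2, 3 or 4 was left out (adjusted p from 0.09 to 0.14).

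Gars, which supplies glycyl-tRNA to both compartments, came next in the same test (adjusted p = 5.9e-11). It lies at chr6:55038007-55079500 on the plus strand. Gars had 218, 296, 259 and 278 CPM in the mono-culture, against 701, 596, 614 and 539 CPM with clone V. With clone H it had 584, 641, 614 and 413 CPM, with KPC1 610, 504, 540 and 473 CPM, and with clone T 453, 518, 497 and 392 CPM. Again these 16 libraries were all above mono-culture, the nearest being a clone T library. With clone M it had 173, 196, 192 and 169 CPM, below every mono-culture library. With clone K it had 320, 259, 241 and 184 CPM, with clone N 338, 288, 366 and 298 CPM, and with clone E 417, 268, 300 and 271 CPM, and these 3 groups overlapped mono-culture. The log2 fold change was 1.22 with clone V (2.33-fold, SE 0.15, adjusted p = 5.6e-08) and -0.53 with clone M (SE 0.15, adjusted p = 0.01).

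Vars, for valine, followed (adjusted p = 4.7e-10) and lies at chr17:35000987-35016322 on the plus strand. Vars had 162, 190, 178 and 206 CPM in the mono-culture. It had 382, 362, 349 and 326 CPM with clone V, 392, 413, 347 and 284 CPM with KPC1, 337, 314, 381 and 260 CPM with clone H, and 279, 374, 299 and 246 CPM with clone T, all above mono-culture. With clone M it had 144, 143, 161 and 136 CPM, with clone K 202, 164, 144 and 110 CPM, with clone N 195, 199, 224 and 199 CPM, and with clone E 241, 179, 211 and 188 CPM. The clone M libraries were just under the lowest mono-culture library and the other 3 groups overlapped it. Its log2 fold change was 0.95 with clone V (SE 0.14, adjusted p = 1.6e-06) and -0.33 with clone M (SE 0.14, adjusted p = 0.093).

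**Figure D3:**
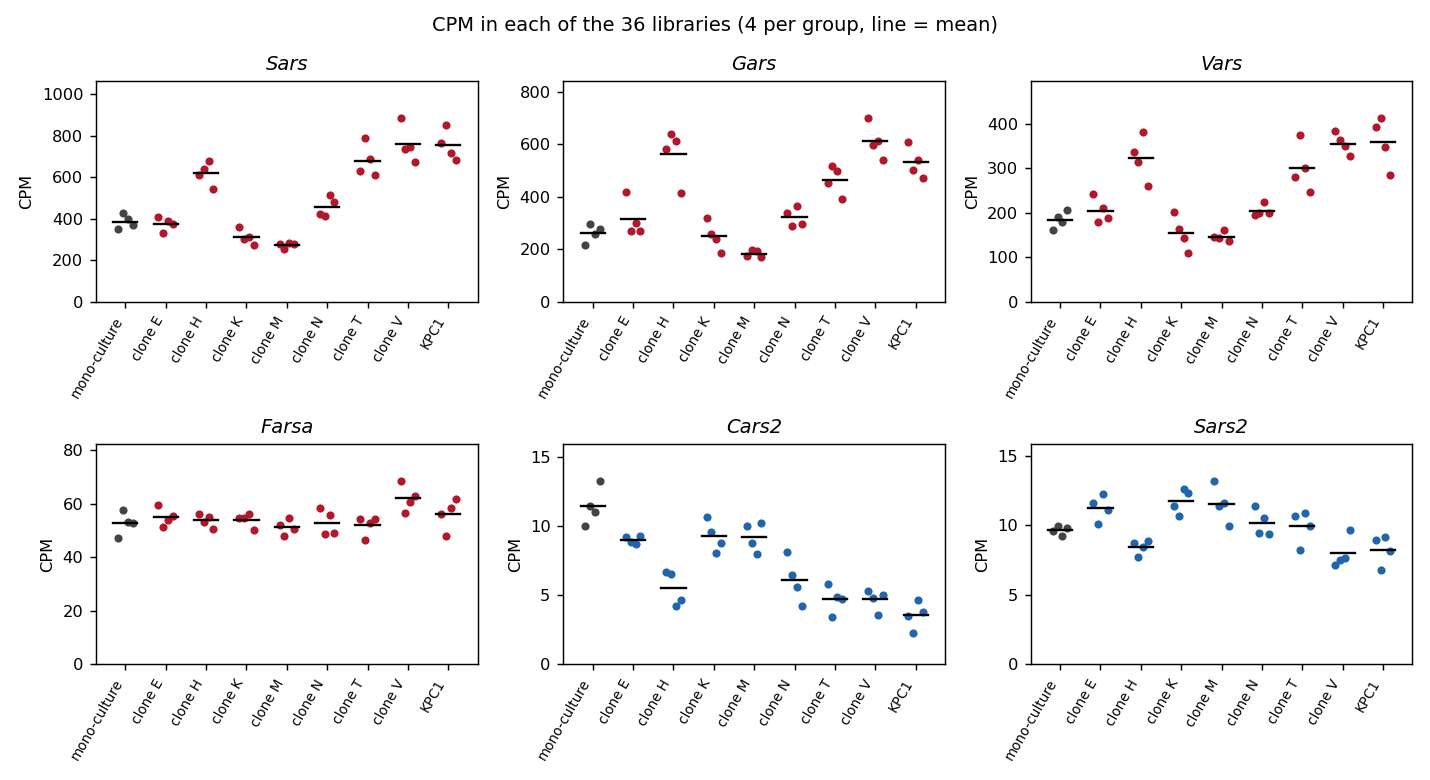
CPM in each of the 36 libraries for Sars, Gars, Vars and Farsa (cytosolic) and Cars2 and Sars2 (mitochondrial), with mono-culture in grey and the group mean as a line, each axis starting at 0. Sars, Gars and Vars step up with clones H, T and V and KPC1, Farsa stays between 46.4 and 68.7 CPM, and Cars2 falls from 10 to 13.3 CPM in the mono-culture to 2.29 to 4.68 CPM with KPC1.

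For the next 5 cytosolic genes by the F-test, clones H, T and V and KPC1 again gave the 4 highest group means and clone M the lowest. Cars, for cysteine, had 82.3 ± 6.42 CPM in the mono-culture, 187 ± 28.2 CPM with clone V and 67.2 ± 6.12 CPM with clone M (SD, n = 4 each). It was the only cytosolic gene other than Qars called higher with clone N (log2 fold change 0.71, SE 0.15, adjusted p = 0.00036), at 135 ± 22 CPM. Rars, for arginine, had 115 ± 7.37, 260 ± 35.5 and 91.5 ± 2.78 CPM in the mono-culture and with clones V and M (SD, n = 4 each). Nars, for asparagine and the most abundant of the 36 by RPKM, had 364 ± 31.8, 913 ± 264 and 260 ± 21.3 CPM in the same 3 groups (SD, n = 4 each). Its spread with clone V was wide, yet its log2 fold change of 1.81 between clones V and M was the largest among cytosolic genes (SE 0.19, adjusted p = 4.7e-09). Yars had 113 ± 11.7, 256 ± 43.6 and 86.1 ± 12.2 CPM, and Iars 152 ± 17.8, 363 ± 46.1 and 125 ± 13.2 CPM (SD, n = 4 each). Iars was highest with KPC1, at 388 ± 109 CPM (SD, n = 4, log2 fold change 1.36, SE 0.20, adjusted p = 1.5e-06).

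The remaining cytosolic genes of this block moved by similar or smaller amounts with clone V. Tars had a log2 fold change of 1.37 (SE 0.20), Wars, for tryptophan, 1.10 (SE 0.24), Lars, for leucine, 0.92 (SE 0.23), Mars, for methionine, 0.66 (SE 0.11) and Eprs 0.62 (SE 0.17), with adjusted p from 1.3e-06 to 0.003. Mars overlaps Ddit3 on the opposite strand and Hars overlaps Hars2 in the same way, and whether counting used the strand is not stated, so reads of these genes may be shared. In the same annotation Aars, Farsb, Wars, Yars, Cars2, Ears2, Fars2 and Iars2 overlap other protein-coding genes in part.

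Aars did not follow the block. It had 667 ± 71.0 CPM in the mono-culture, 899 ± 124 CPM with clone V and 387 ± 72.2, 464 ± 107 and 464 ± 70.1 CPM with clones M, E and N (SD, n = 4 each). It was lower with clone M (log2 fold change -0.79, SE 0.18, adjusted p = 0.0012), with clone E (-0.52, SE 0.18, adjusted p = 0.022) and with clone N (-0.52, SE 0.18, adjusted p = 0.018), and with KPC1 it was at 0.14 (SE 0.18, adjusted p = 0.52). Its call with clone M held in each alternative. That with clone E was lost when mono-culture replicate 2 or 4 or clone E replicate 3 or 4 was left out, and that with clone N when clone N replicate 2 or 4 was (adjusted p from 0.051 to 0.099). That with clone V was lost without mono-culture replicate 1 or 3 or clone V replicate 1, 2 or 3 (adjusted p from 0.068 to 0.1). Both runs of limma on RPKM lost it too (adjusted p = 0.087 and 0.085).

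Farsa and Farsb, which encode the 2 subunits of the cytosolic enzyme for phenylalanine, parted from each other. Farsa, the alpha subunit, lies at chr8:84856989-84869257 on the plus strand. It had 47.1, 57.6, 53.2 and 52.9 CPM in the mono-culture, 68.7, 56.7, 60.8 and 63.0 CPM with clone V, and 56.0, 47.9, 58.5 and 61.9 CPM with KPC1. With clone H it had 56.3, 53.1, 55.1 and 50.6 CPM, with clone T 54.1, 46.4, 52.9 and 54.5 CPM, and with clone M 51.9, 48.1, 54.7 and 50.7 CPM. With clones E, K and N its 12 libraries lay between 48.9 and 59.5 CPM. All groups overlapped mono-culture, and its log2 fold change with clone V was 0.24 (SE 0.08, adjusted p = 0.012). Farsb, the beta subunit, had 38.0 ± 5.15 CPM in the mono-culture and 78.3 ± 8.29 CPM beside clone V (SD, n = 4 each, log2 fold change 1.04, SE 0.17, adjusted p = 6.4e-06). On the RPKM scale, the ratio of Farsb to Farsa was 1.18 ± 0.128 in mono-culture (SD, n = 4, range 1.02 to 1.33). It was 2.58 ± 1.09 with KPC1, and 2.07 ± 0.295, 2.23 ± 0.451 and 2.30 ± 0.703 for clones V, H and T (SD, n = 4 each), and the lowest of these 16 libraries was at 1.55. With clones N, E, K and M it was 1.55 ± 0.0876, 1.4 ± 0.117, 1.15 ± 0.127 and 0.997 ± 0.0492 (SD, n = 4 each). The clone N libraries also lay above mono-culture, from 1.45 to 1.65, and those of clones E, K and M overlapped it. This ratio was looked at after the values of both genes had been seen and has no test.

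**Figure D4:**
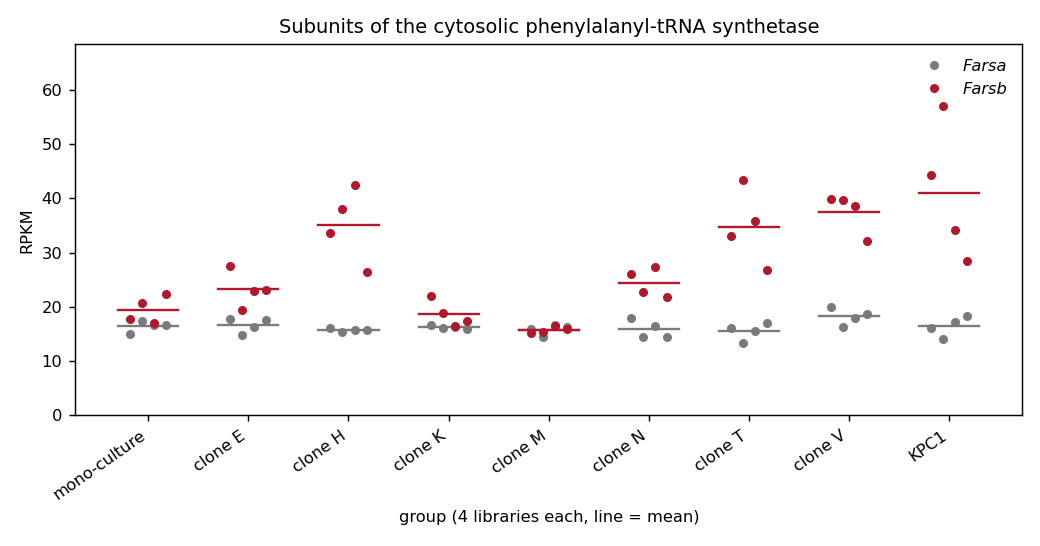
RPKM of Farsa (grey) and Farsb (red), the subunits of the cytosolic phenylalanyl-tRNA synthetase, in each library by group, with group means as lines and the axis starting at 0. Group means of Farsa stay between 15.5 and 18.2 RPKM, while those of Farsb run from 15.7 RPKM with clone M to 41.0 RPKM with KPC1.

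Membership of the multi-synthetase complex and catalytic class were set beside the fold changes. The 8 complex genes are Eprs, Iars, Lars, Mars, Qars, Rars, Kars and Dars. Their median log2 fold change was 0.64, 0.63 and 0.51 with clones V, H and T and 0.67 with KPC1. The 12 cytosolic genes outside the complex had medians of 1.07, 0.91, 0.82 and 1 in the same order. Within the complex, Iars and Rars rose by over 1 on the log2 scale with clone V, while Dars was at 0.27 (SE 0.11, adjusted p = 0.041), Qars at 0.27 (SE 0.10, adjusted p = 0.027) and Kars, for lysine, at 0.45 (SE 0.10, adjusted p = 0.00025). Aminoacyl-tRNA synthetases fall into 2 unrelated catalytic folds, class I and class II, and Eprs, which joins one of each, was left out of this count. All 9 enzymes with the class I fold were higher with each of clones H, T and V and KPC1. Of all genes tested, 27.8%, 25%, 29.4% and 30.5% were higher with these lines, in this order. Of the 10 with the class II fold, 10 were higher with clone V, 7 with clone H and 5 each with clone T and KPC1. Class II holds Aars, Dars, Farsa, Hars and Kars, the 5 cytosolic genes called higher with at most 2 lines.

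Cars2, the mitochondrial enzyme for cysteine, fell with 5 lines, while cytosolic Cars rose with 6. It lies at chr8:11513977-11550783 on the minus strand and was the most sharply separated mitochondrial gene (edgeR F-test, adjusted p = 1.2e-07). Cars2 had 10, 11.4, 11 and 13.3 CPM in the mono-culture. It had 3.48, 2.29, 4.68 and 3.76 CPM with KPC1, 5.34, 4.81, 3.60 and 5.03 CPM with clone V, and 5.79, 3.46, 4.86 and 4.71 CPM with clone T. With clone H it had 6.71, 6.52, 4.23 and 4.67 CPM and with clone N 8.11, 6.44, 5.57 and 4.25 CPM. All 20 of these libraries were below each mono-culture library. With clones E, K and M it had 9.24, 8.82, 8.71 and 9.25 CPM, 10.7, 9.56, 8.09 and 8.77 CPM, and 9.99, 8.75, 7.97 and 10.2 CPM. The clone E libraries were all below mono-culture but not called, and clones K and M overlapped it. The log2 fold change was -1.69 with KPC1 (0.31 times mono-culture, SE 0.19, adjusted p = 1.6e-08), -1.29 with clone V (SE 0.19, adjusted p = 1e-06) and -0.35 with clone E (SE 0.18, adjusted p = 0.15).

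Sars2, the mitochondrial enzyme for serine, came next among mitochondrial genes (adjusted p = 5.3e-05), at chr7:28741992-28753871 on the plus strand. Sars2 had 9.58, 9.96, 9.20 and 9.78 CPM in the mono-culture, 7.12, 7.51, 7.63 and 9.69 CPM with clone V, 8.91, 6.75, 9.18 and 8.16 CPM with KPC1, and 8.74, 7.73, 8.41 and 8.90 CPM with clone H. With clone K it had 11.4, 10.7, 12.6 and 12.3 CPM, with clone E 11.6, 10.1, 12.3 and 11.1 CPM, with clone M 13.2, 11.4, 11.6 and 9.92 CPM, with clone N 11.4, 9.42, 10.5 and 9.36 CPM, and with clone T 10.7, 8.24, 10.9 and 9.96 CPM. Clones K and E lay above mono-culture, clone H and KPC1 below it, and the others overlapped it. Its only call against mono-culture was with clone V (log2 fold change -0.27, SE 0.12, adjusted p = 0.044), which was lost when mono-culture replicate 1, 2 or 4 or clone V replicate 1, 2 or 3 was left out (adjusted p from 0.068 to 0.13). This call was also lost without the filter on low counts (adjusted p = 0.13) and with only the groups compared (adjusted p = 0.099). The difference between clones V and M was -0.53 (SE 0.12, adjusted p = 0.00022).

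Pars2, for proline, was called lower with 6 of 8 lines. Its calls with clones E and N were lost without mono-culture replicate 1 or 4, without clone E replicate 2 or 3 and without clone N replicate 1 or 2 (adjusted p from 0.05 to 0.088), which leaves 4 lines, while the 5 calls of Cars2 stayed in each alternative. It had 9.49 ± 0.972 CPM in the mono-culture and 4.95 ± 0.843 CPM with clone T (SD, n = 4 each, log2 fold change -0.94, SE 0.15, adjusted p = 7.2e-06). Wars2, for tryptophan, had 15.4 ± 1.14 CPM in the mono-culture, 9.92 ± 1.12 and 10.2 ± 0.406 CPM with clones H and V (SD, n = 4 each), and was lower with clones H and V and KPC1. The call with KPC1 was lost without KPC1 replicate 3 (adjusted p = 0.05). Fars2, for phenylalanine, was lower with the same 3 lines, at log2 fold changes of -0.43, -0.59 and -0.42 with clone H, clone V and KPC1. Rars2, for arginine, was lower with clones N and T and KPC1, at -0.44, -0.42 and -0.42. The calls with clones N and T were lost without mono-culture replicate 3 or 4 or without replicate 2, 3 or 4 of the clone (adjusted p from 0.052 to 0.11), and that with KPC1 without KPC1 replicate 1 (adjusted p = 0.067). Aars2, for alanine, had 11.9 ± 1.08 CPM in the mono-culture and 15.2 ± 1.39 CPM with clone K (SD, n = 4 each), and that call (log2 fold change 0.34, SE 0.12, adjusted p = 0.045) was lost in 10 of the 18 alternatives (adjusted p from 0.054 to 0.14 in these).

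Mars2, Nars2 and Yars2 were among the mitochondrial genes called higher. Mars2, for methionine and the least abundant of the 36, had 3.92 ± 0.755 CPM in the mono-culture, 7.14 ± 1.56 CPM with clone V and 3.55 ± 0.636 CPM with clone M (SD, n = 4 each). It was higher with clone V (log2 fold change 0.86, SE 0.18, adjusted p = 0.00018), with KPC1 (0.67), with clone H (0.57) and with clone N (0.54). The call with clone N was lost with either RPKM pseudocount and without mono-culture replicate 3 or clone N replicate 3 (adjusted p from 0.06 to 0.088). Nars2, for asparagine, had 4.03 ± 0.609 CPM in the mono-culture, 6.00 ± 2.10 CPM with clone V and 6.19 ± 1.67 CPM with KPC1 (SD, n = 4 each). It was higher with clone H (log2 fold change 0.55, SE 0.21, adjusted p = 0.026), clone V (0.57, SE 0.21, adjusted p = 0.02) and KPC1 (0.62, SE 0.21, adjusted p = 0.012), and each of the 3 calls was lost without mono-culture replicate 1 (adjusted p from 0.054 to 0.097), among other libraries of the co-cultures. The calls with clones H and V were also lost without scaling beyond the library total (adjusted p = 0.071 and 0.058) and with either RPKM pseudocount (adjusted p from 0.068 to 0.093). The clone V call was lost with only the groups compared (adjusted p = 0.066), and had an adjusted p of 0.21 without clone V replicate 1. Yars2, for tyrosine, was higher with clone V alone (0.44, SE 0.14, adjusted p = 0.006). Iars2, the most abundant mitochondrial member, had group means between 54.1 ± 4.54 CPM with clone K and 72.4 ± 9.57 CPM with clone T (SD, n = 4 each) and 61.7 ± 4.61 CPM in the mono-culture.

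Enzymes for the same amino acid were then set side by side. There were 16 such pairings of a cytosolic with a mitochondrial gene, Eprs being paired with both Ears2 and Pars2. The cytosolic log2 fold change was above the mitochondrial one in 16 of 16 pairings with clones H and T, in 15 with clone V and KPC1, and in 12, 9, 8 and 1 with clones N, E, K and M in this order. The median difference was 0.96 with clone V and 0.88 with KPC1, 0.71 and 0.66 with clones H and T, and 0.14, 0.11, 0.04 and -0.25 with clones N, E, K and M. With clone V the exception was methionine, with Mars at 0.66 and Mars2 at 0.86, and cysteine was farthest apart, with Cars at 1.18 and Cars2 at -1.29.

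**Figure D5:**
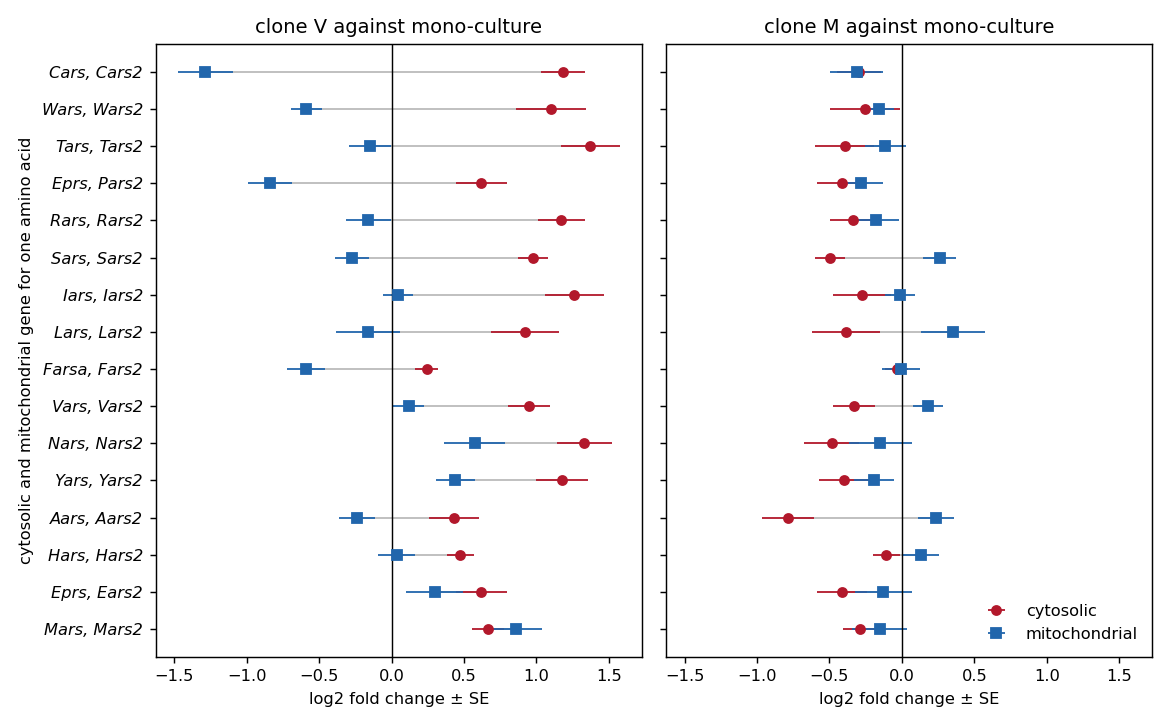
log2 fold change against mono-culture, with its SE, of the cytosolic gene (red circle) and the mitochondrial gene (blue square) for each amino acid, with clone V on the left and clone M on the right. With clone V 15 of 16 circles lie to the right of their squares, and with clone M 15 of 16 lie to the left.

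Accessory genes of tRNA charging showed a mixed picture. Of 15 listed, 13 were tested, and 8 (61.5%) were called among the 8 co-cultures, against 72% of all genes. With clone V 5 were higher and 2 lower (29.4% and 28.9% of all genes), and with KPC1 6 and 2 (30.5% and 28.5%). With clones H and T it was 3 and 3 each (27.8% and 26.4%, and 25% and 24.7%). With clone M it was 0 and 3 (12.2% and 10.8%). Eef1e1, a scaffold of the complex, was higher with clone V (log2 fold change 1.17, SE 0.17, adjusted p = 6.7e-07), KPC1 (1.01), clone H (0.78) and clone T (0.77). Aimp2 was higher with clone V only (0.71, SE 0.16, adjusted p = 0.00036), and Aimp1 was higher with KPC1 (0.61), clone T (0.36) and clone N (0.31). Xpot, which exports tRNA from the nucleus, was higher with clones V (0.79), H (0.57) and T (0.49) and KPC1 (0.49), and lower with clone M (-0.53, SE 0.18, adjusted p = 0.032). Dtd1, which removes D-amino acids from tRNA, was lower with all 8 lines, from -0.73 with clone K to -1.45 with clone V. Gatc and Qrsl1 encode subunits of the enzyme that completes mitochondrial glutaminyl-tRNA. Gatc was higher with clone V (0.55) and KPC1 (0.77) and lower with clones K (-0.50) and N (-0.50), while Qrsl1 was higher with clones V (0.50) and K (0.38). Sepsecs, of selenocysteine-tRNA synthesis, was higher with KPC1 only (0.47, SE 0.18, adjusted p = 0.03).

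A list of 24 integrated stress response genes was read over the same groups, and 24 of 24 were called among the 8 co-cultures, against 72% of all genes. Of these, 23 were higher and 1 lower with clone V (29.4% and 28.9% of all genes) and with clone H (27.8% and 26.4%). With KPC1 it was 21 and 1 (30.5% and 28.5%) and with clone T 19 and 1 (25% and 24.7%). With clone N it was 4 and 1 (19.7% and 19.2%) and with clone E 3 and 2 (16.5% and 15.5%). With clone K it was 0 and 1 (10.4% and 8.69%) and with clone M 0 and 14 (12.2% and 10.8%). Atf4, the factor named above, had a log2 fold change of 0.71 with clone V (SE 0.14, adjusted p = 6.2e-05) and -0.73 with clone M (SE 0.14, adjusted p = 0.00023). Trib3, an ATF4 target that restrains it, was at 1.07 (SE 0.25, adjusted p = 0.00053) and -1.46 (SE 0.26, adjusted p = 9.1e-05), and Ddit3, a transcription factor induced in the same response, at 1.33 (SE 0.21, adjusted p = 2.4e-06) and -1 (SE 0.21, adjusted p = 0.00055). Asns, asparagine synthetase, was at 1.69 with clone V (SE 0.23, adjusted p = 2.7e-07), above each of the 20 cytosolic members, of which Nars, for the same amino acid, was at 1.33 (SE 0.19, adjusted p = 6e-07). With clone E Ddit3 was lower (-0.89, SE 0.21, adjusted p = 0.0013) while Sars, Gars and Vars were at -0.04, 0.26 and 0.15.

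Genes of other parts of the translation machinery were read over the same groups. A list of 6 cytosolic elongation factor genes also held Eef1e1, the scaffold of the synthetase complex described above. All 6 listed genes were called among the 8 co-cultures, against 72% of all genes. Against mono-culture 1 was higher with clone V (29.4% of all genes) and 1 with clone H (27.8%), and in both this was Eef1e1. With clone T 3 were higher (25%) and with KPC1 5 (30.5%). The medians with clones V, H and T and KPC1 were 0.16, 0.22, 0.31 and 0.45. For mitochondrial ribosomal proteins, 77 genes with symbols that start with Mrpl or Mrps were read, the pseudogenes Mrpl23-ps1 and Mrpl48-ps among them. Of these 77, 20 were higher and 17 lower with clone V, against 29.4% and 28.9% of all genes, with a median log2 fold change of 0.01. With clone H 11 were higher and 22 lower (27.8% and 26.4%), and with clone T 11 and 18 (25% and 24.7%). With clone M 0 were higher and 8 lower, against 12.2% and 10.8%, with a median of -0.18. Of 10 mitochondrial translation factors, 0 were higher and 3 lower with clone V (29.4% and 28.9% of all genes) and with clone H (27.8% and 26.4%). With clone M it was 0 and 1 (12.2% and 10.8%).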

How the data were processed

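RNA was sequenced from 36 libraries of sorted or mono-cultured fibroblasts, made from 200 ng of total RNA by poly(A) selection with a strand-specific kit, 14 cycles of amplification and 76 bp paired-end reads. Counts of reads for 39017 genes, as whole numbers without scaling between libraries, were deposited by the authors, as were RPKM values for 37746 of these genes, which followed the counts divided by library total at 0.99977 to 1.0003 times their median relation. The submitters' processing notes name STAR, featureCounts, edgeR and build mm10, without versions or roles. The strand setting of the counting is not given in the sources used here. Groups came from the sample labels. A chi-square comparison of the libraries within each group gave at least 5.63 per degree of freedom, so none was counted as a duplicate.

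The analysis of counts used edgeR 4.0.16 and R 4.3.3: filterByExpr on the 9 groups, TMM scaling, 1 coefficient per group over the 36 libraries, robust quasi-likelihood fit and test, and Benjamini-Hochberg adjustment over all 14439 genes with 0.05 as the threshold. Each co-culture was compared with mono-culture, clone V with clone M, all 28 pairs of co-cultures with each other, and the 8 co-cultures together by an F-test. Tests are two-sided. CPM values carry the TMM scaling, with a prior count of 1 on the log2 scale. SEs were derived from the fold change and its F-statistic. Counting error is small at these depths for cytosolic genes and larger for mitochondrial genes, whose counts began at 38, and it is not the only error, since amplified reads are not independent molecules. The procedure was tested on simulated counts. Values in every library are given for the 3 cytosolic genes with the smallest and the 1 with the largest p in the F-test and for the 2 mitochondrial genes with the smallest. Group means are given for the next 5 and 3, for genes called against their class in 3 or more comparisons, and for the most and least abundant of each class. Pars2 and Farsb were named after their values were seen, and other genes are given by fold change. The members, the lists and the pair of clones V and M were chosen with earlier results of these data known.

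The alternatives comprised DESeq2 1.42.0, limma 3.58.1 (trend) on log2(RPKM + 1) and on log2(RPKM + 0.1), RLE scaling, the library total alone as scaling, all genes unfiltered, a minimum of 10 counts in each library, a threshold of 0.1, only the groups compared, the replicate number as a block, and leaving out each library in turn. Promoter windows were searched with Python 3.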

Additional observations from a re-analysis of the deposited data

Results flagged for a closer look

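Single libraries stood apart from the other 3 of their group, by the gap between them relative to the range, in 16 of 324 sets of 4 values (36 genes in 9 groups, 4.94%), and in 4 of 27 sets of class values, which are means of the same genes or their difference (14.8%). Chance gives about 1 in 20 for independent sets. Clone E replicate 1 was high for Lars at 243.9 CPM, Mars at 158.5 CPM, Nars at 511 CPM and Yars at 159 CPM, and its cytosolic mean log2 CPM was 7.62. Clone H replicate 4 was low for Aars at 611 CPM and Nars at 505 CPM, with a cytosolic mean log2 CPM of 7.59. Clone N replicate 3 was high for Cars at 168 CPM and Vars at 224 CPM. Rars was low in clone V replicate 4 at 208 CPM. Among mitochondrial genes Ears2 was high in clone K replicate 1 at 6.51 CPM, Iars2 in mono-culture replicate 3 at 68.6 CPM, Lars2 in clone H replicate 3 at 75.0 CPM, Pars2 in clone K replicate 2 at 9.23 CPM, Rars2 in clone V replicate 1 at 30.3 CPM and Tars2 in clone N replicate 1 at 31.2 CPM, and Yars2 was low in clone T replicate 3 at 11.9 CPM. The mitochondrial mean log2 CPM was high in mono-culture replicate 4, at 3.89, and in KPC1 replicate 4, at 3.67.

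Aars, Gars and Sars were called higher with clone V and lower with clone M, each against mono-culture. The rule that listed them also asked for a call in the direct test of clone V against clone M. Their direct calls were therefore fixed by the rule and come from the same libraries. Their log2 fold changes in that test were 1.22, 1.75 and 1.48, and the call of Aars with clone V against mono-culture did not hold in each alternative.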

How the results depend on the processing

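No called member changed direction in the alternatives run. Of 136 called values of single members, the number no longer past the threshold was 0 with DESeq2 and RLE scaling. It was 1 with at least 10 counts in every library, 5 without the filter and 7 with only the groups compared. It was 8 without scaling beyond the library total and 9 with either RPKM pseudocount. The threshold of 0.1 was applied to the main fit, so no call could be lost there. Counts of cytosolic members called for clone M (3) became 5 with DESeq2, 6 without scaling, 6 with each RPKM pseudocount, 7 at the threshold of 0.1 and 14 with only the groups compared (13 lower and 1 higher). For clone E the 2 cytosolic calls became 1 without scaling and with each RPKM pseudocount and 5 with only the groups compared, and the 1 mitochondrial call became 3. For clone K the 1 cytosolic call became 0 without the filter, and the 1 mitochondrial call became 0 without the filter, without scaling and with each RPKM pseudocount, and 2 at the threshold of 0.1 and with only the groups compared. For clone N the 3 cytosolic calls became 6 at the threshold of 0.1 and 7 with only the groups compared, and for clone T the 3 mitochondrial calls became 6 at the threshold of 0.1. The cause was not tested, and the share of all genes called with only the groups compared was not computed. Leaving out single libraries moved cytosolic calls within 0 to 2 for clone E, 0 to 1 for clone K and 16 to 20 for clone V (16 without mono-culture replicate 1), and mitochondrial calls within 0 to 1 for clones E and K and 2 to 4 for clone N. Without scaling beyond the library total the median of all genes moved by at most -0.095, the share of higher calls over all genes fell from 54.6% to 45.4% for clone K at most, and 16 cytosolic members were called higher with clone V.

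The labels give the groups the same replicate numbers. Same-numbered libraries of different co-cultures had correlated deviations from -0.519 to 0.693 over 112 pairs, and those of mono-culture and a co-culture from -0.582 to 0.461, so the numbers were not taken to pair the libraries. As a hint from the data, 24 of 32 co-culture libraries correlated best with their own number, and replicate 4 had the lowest cytosolic mean in 7 of 8 co-cultures. With the replicate block, cytosolic calls were 9 for clone M and 6 for clone N, mitochondrial calls were 2 for clone K, and 1 of 136 called values was lost, that of Lars2 between clones V and M (adjusted p = 0.054).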
